A study of Gallus gallus with 12 samples.

Results

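The long inner stretches of chicken chromosomes 1, 2, 3 and 5 are described here from maps of methylation-enriched DNA in liver. A peak, an interval where immunoprecipitated DNA was enriched over input DNA, was counted as interior when its midpoint lay more than 2 Mb from both ends of its chromosome. The ends were position 0 and the highest peak end of that chromosome in any list. This gave 107169 of 356324 peaks over 6 libraries. They merged into 30900 of the 90181 regions formed by overlapping or touching peaks of all lists. The interiors span 191.276 Mb of chromosome 1, 144.809 Mb of chromosome 2, 106.444 Mb of chromosome 3 and 55.5791 Mb of chromosome 5. Together they make up 49.6% of the length of all chromosomes as the lists show it. Chromosome 4, also a large chromosome, lies outside the definition.

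The study set out to examine whether DNA methylation differs between chickens resistant and chickens susceptible to ALV-J, the subgroup J of avian leukosis virus, which causes tumours of blood-forming tissue. Methylated DNA immunoprecipitation sequencing (MeDIP-seq) recovers DNA fragments with an antibody against methylated cytosine, and each library was compared with its own input, DNA taken before that step. Liver DNA gave 3 libraries of the ALV-J-resistant and 3 of the ALV-J-susceptible group, numbered as replicates 1 to 3 in order of accession, and the numbers pair no samples. The labels name neither breed, age, sex nor infection of the birds, and they leave unsaid whether each library is a separate bird, so p-values reflect the spread between samples that may be technical.

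Bird genomes are split into a few large macrochromosomes and many small microchromosomes. Chicken microchromosomes and chromosome ends are known to be rich in G and C bases, CpG sites and genes, and macrochromosome interiors to be poorer in them. DNA methylation in vertebrates sits mainly on cytosines of CpG sites, and the antibody recovers stretches with several methylated CpGs together more readily than single ones. CpG content was not analysed here. A covered length is therefore an amount of enriched DNA and not a share of CpGs that are methylated, and a bare stretch is one in which nothing passed the authors' threshold, at a sequencing depth that is unknown.

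The lists held 64559, 61753 and 56120 peaks in resistant replicates 1 to 3 and 55759, 62534 and 55599 in susceptible replicates 1 to 3. Resistant replicate 3 and susceptible replicate 3 stood apart, with 65.3 and 68.1 kb of peaks per Mb on chromosome Z against 29.9 to 31.8 in the others, and 50.2 and 53.3 against 179 to 189 kb per Mb on W. Their interior peaks were also fewer and wider, and group results are given without them too. Whether what sets them apart bears on the interiors was not tested.

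The interiors were thinly and unevenly covered. In resistant replicates 1 to 3 they held 19957, 19001 and 15951 peaks, and in susceptible replicates 1 to 3 they held 16809, 19329 and 16122. These peaks covered 11.6, 11.1 and 10.4 Mb in the resistant and 10.2, 11.6 and 11.0 Mb in the susceptible libraries. The groups overlapped in both measures, and the fewest peaks were found in both replicates 3. Interiors supplied 28.4 to 30.9% of the peaks and 22.8 to 25.7% of the covered length of each list, both lowest in resistant replicate 3, on 49.6% of the measured length.

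Compared with the outer 2 Mb at both ends of the same chromosomes, the interiors had fewer, narrower and weaker peaks that were less often shared. Peaks covered 22.1 ± 1.18 kb per Mb of interior and 113 ± 4.02 kb per Mb of end (mean ± SD, n = 6 libraries throughout this comparison), a 5.13-fold higher coverage at the ends. The number of peaks was 35.9 ± 3.55 per Mb in the interiors and 122.9 ± 8.63 per Mb at the ends. Mean peak width was 618 ± 41.2 bp against 924 ± 67.0 bp. The distance from one peak to the next on a chromosome, the gap, had a median of 9441 ± 949 bp in the interiors and 1821 ± 81.3 bp at the ends.

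Peak strength was read from the score that the authors' peak caller attached to each peak, which grows with the significance of the peak and also with depth. It was therefore ranked within each list, as the rank from the lowest score upwards in percent of that list's number of peaks. Peaks with the same score were given their average rank. The median interior peak stood at percentile 42.6 ± 0.692 and the median end peak at 58.4 ± 0.730. Of the interior peaks, 49.8 ± 4.33% lay in a region with a peak in all 6 libraries, against 68.0 ± 3.10% of the end peaks.

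Chromosomes 6 to 10, of intermediate size and taken whole, lay between the interiors and the ends in each of these measures. They had 49.6 ± 2.20 kb of peaks per Mb, 68.6 ± 6.12 peaks per Mb, a mean width of 725 ± 51.6 bp and a median gap of 3221 ± 190 bp. Their median score percentile was 48.1 ± 0.513, and 58.2 ± 4.12% of their peaks lay in regions of all 6 libraries. Each measure differed from the interiors in the same direction in 6 of 6 libraries, for the ends and for chromosomes 6 to 10 alike. The exact two-sided sign-flip permutation test within library gave p = 0.03125 for each, the smallest that 6 libraries allow, and the adjusted value over 14 tests was 0.03125. With 2 Mb left out at both ends of chromosomes 6 to 10 the difference in coverage was -22.1 kb per Mb, against -27.5 kb per Mb with whole chromosomes.

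**Figure D1:**
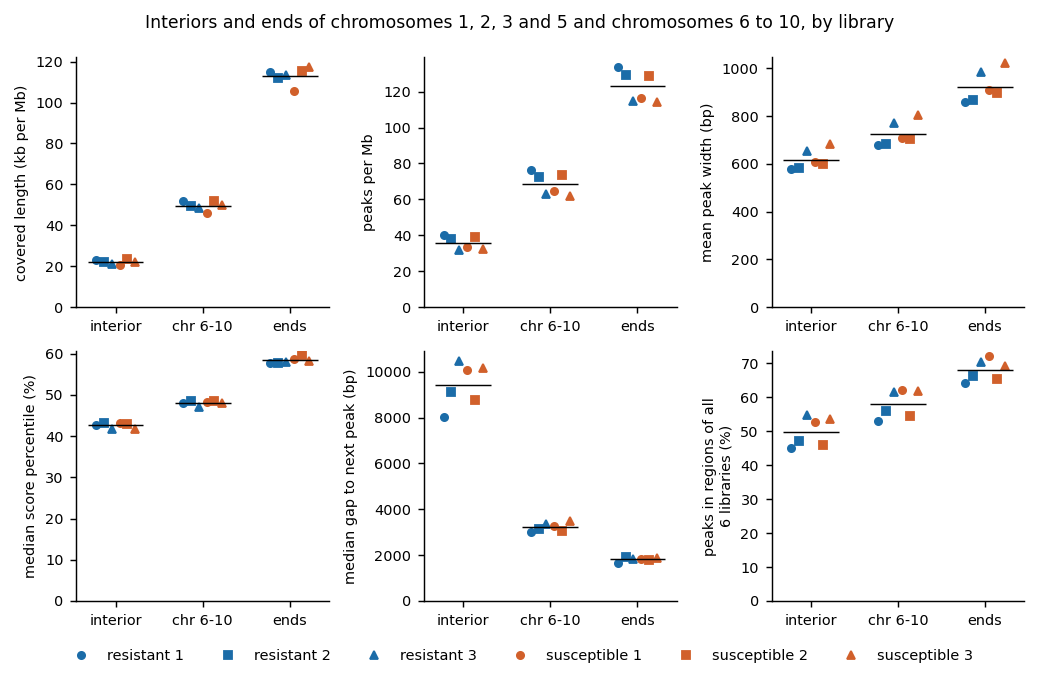
Values of each library for the interiors of chromosomes 1, 2, 3 and 5, for chromosomes 6 to 10 and for the outer 2 Mb of chromosomes 1, 2, 3 and 5: covered length (kb per Mb), peaks per Mb, mean peak width (bp), median score percentile (%), median gap (bp) and share of peaks in regions of all 6 libraries (%). Symbols are the 6 libraries, colours the 2 groups and lines the mean of 6; the interiors lie lowest in every panel but the gap, where they lie highest, and the symbols of both groups are mixed.

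The contrast between interior and end was not of the same size on every chromosome. It was 7.43-fold on chromosome 1 (23.2 ± 1.22 against 173 ± 6.37 kb per Mb), 6.04-fold on chromosome 2 (18.5 ± 1.06 against 112 ± 3.80) and 4.89-fold on chromosome 5 (27.5 ± 1.41 against 135 ± 4.83), with n = 6 libraries each. On chromosome 3 it was 1.52-fold, with 22.0 ± 1.19 kb per Mb inside and 33.3 ± 1.999 kb per Mb at the ends. Coverage was lower inside in 6 of 6 libraries on each chromosome (exact sign-flip permutation test, p = 0.03125, adjusted p = 0.0357 over 16 tests).

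For chromosome 3 the other measures also lay close together. Mean width was 609 bp inside and 623 bp at the ends, lower inside in 6 of 6 libraries (exact p = 0.03125, adjusted p = 0.0357). The median gap was 8105 ± 753 bp inside and 8082 ± 854 bp at the ends, with differences between -640.5 and 625.5 bp over the libraries (n = 6, exact p = 0.969). The share of peaks in regions of all 6 libraries was 49.7 ± 4.22% and 52.6 ± 4.12% (n = 6, exact p = 0.0625, adjusted p = 0.0667). On the other 3 chromosomes all of these measures differed in 6 of 6 libraries. This comparison by chromosome was made after its values were seen.

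Among the interiors themselves, coverage was highest on chromosome 5, followed by chromosomes 1, 3 and 2, at 27.5 ± 1.41, 23.2 ± 1.22, 22.0 ± 1.19 and 18.5 ± 1.06 kb per Mb (n = 6). This order held in 6 of 6 libraries for each of the 6 pairs of chromosomes (exact sign-flip permutation test, p = 0.03125, adjusted over 6 pairs 0.03125). The smallest step, chromosome 1 minus chromosome 3, was 1.28 ± 0.212 kb per Mb, and the largest, chromosome 2 minus chromosome 5, was -9.07 ± 0.441 kb per Mb. With a margin of 5 Mb in place of 2 Mb, chromosome 1 minus chromosome 3 was 3.25 and chromosome 2 minus chromosome 3 moved from -3.48 to -1.95 kb per Mb. The median 1 Mb window did not follow the order of the means, with 19.9, 19.6, 13.0 and 13.8 kb on chromosomes 5, 1, 3 and 2, so that chromosome 3 stood lowest. Mean peak width followed the same order, at 671, 624, 609 and 589 bp, again in 6 of 6 libraries for each pair. Sharing was highest on chromosome 5 (53.8% of peaks in regions of all 6 libraries) and lowest on chromosome 2 (47.5%). Chromosomes 1 and 3, at 50.1% and 49.7%, differed by 0.412 ± 0.667 percentage points (n = 6, exact p = 0.1875, adjusted p = 0.1875), and the other 5 pairs differed with an adjusted p of 0.0375.

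Pooled over the 4 chromosomes, coverage fell steeply over the first few Mb from an end and then flattened. It was 113 ± 4.02 kb per Mb in the outer 2 Mb, 37.1 ± 1.76 between 2 and 5 Mb, 29.2 ± 1.49 between 5 and 10 Mb and 19.9 ± 1.28 between 10 and 20 Mb (n = 6). The lowest value, 18.1 ± 0.923 kb per Mb, was between 20 and 40 Mb. Farther in it was 21.6 ± 1.06 between 40 and 60 Mb and 23.3 ± 1.35 kb per Mb between 60 and 100 Mb. Mean width passed through 924, 689, 661, 598 and 582 bp over the same first 5 bands and stood at 601 and 647 bp in the last 2. Only chromosomes 1, 2 and 3 reach the band from 40 to 60 Mb, and only chromosomes 1 and 2 the innermost, so these bands differ in the chromosomes they hold. Between 40 and 60 Mb chromosome 3 had 14.1 and 14.2 kb per Mb on its 2 sides, and it is missing from the innermost band. From the band at 40 to 60 Mb to the innermost, coverage went from 32.4 to 24.5 and from 25.9 to 26.0 kb per Mb on the first and last side of chromosome 1, and from 21.7 to 23.2 and from 17.8 to 13.4 on those of chromosome 2. The higher pooled value of the innermost band was thus not a rise on each chromosome. No test was made between bands.

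The 2 sides of a chromosome did not follow this course equally. On chromosome 3 the first 2 Mb were covered at 22.4 ± 2.63 kb per Mb and the stretch from 2 to 5 Mb at 74.2 ± 3.89, so that the interior edge was richer than the end. At the far end of chromosome 3 the outer 2 Mb had 44.2 ± 2.45 and the stretch 5 to 10 Mb from the end 69.0 ± 3.01 kb per Mb. Chromosome 1 went the other way, from 144 and 201 kb per Mb in its outer 2 Mb at the first and last end to 9.67 ± 0.882 and 12.0 ± 1.20 at 5 to 10 Mb. Chromosome 2 was asymmetric between 2 and 5 Mb, with 49.5 ± 2.15 kb per Mb at its first and 11.6 ± 1.09 at its last end (n = 6 for each value).

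**Figure D2:**
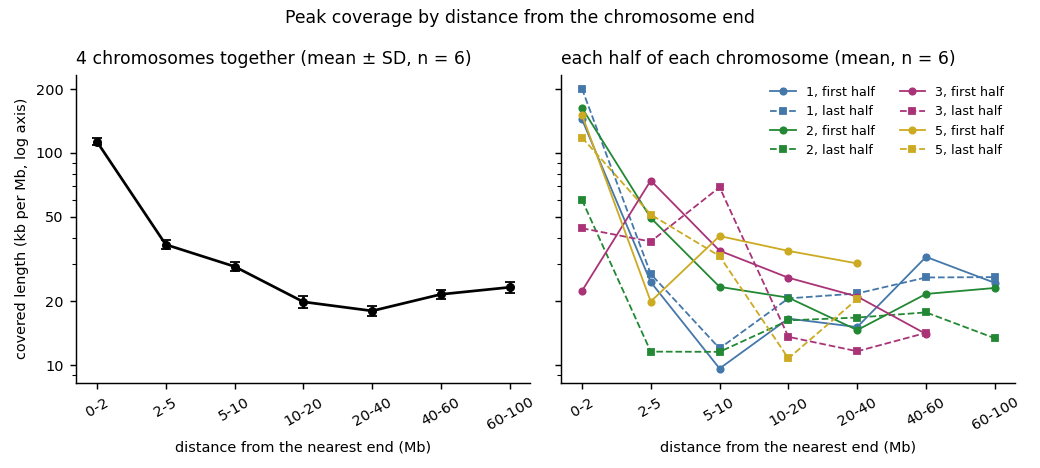
Covered length in kb per Mb (log axis) against the distance from the nearest chromosome end in Mb. Left, the 4 chromosomes together, where points are means of 6 libraries and bars the SD; right, each side of each chromosome, where the first 2 Mb of chromosome 3 lie near the level of the interiors and its next bands above it.

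Fixed windows of 1 Mb gave the profile along the interiors. There were 496 whole windows, 191 on chromosome 1, 144 on chromosome 2, 106 on chromosome 3 and 55 on chromosome 5, and each of them held a peak in every library. The mean covered length over 6 libraries ranged from 1.39 to 193 kb per window, a ratio of 139. Its median was 16.4 kb, with 5.95 kb at the tenth and 41.4 kb at the ninetieth percentile. Above 50 kb stood 32 windows, and 133 lay below 10 kb. The richest 50 windows held 31.5% of the covered length and the poorest 50 held 2.04%.

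This profile was nearly the same in each library. Spearman's rho between libraries over the 496 windows was 0.980 to 0.985 for the 15 pairs, whether of the same or of different groups. These windows share the reference sequence, its CpG content and its mappability, so the correlation is a description only. The coefficient of variation over the 6 libraries had a median of 9.86% per window, 6.03% among the richest 50 windows and 19.95% among the poorest 50. Over windows the coefficient of variation of the mean was 92.9%. Of the windows among the richest 50 of any library (57 in number), 41 were so in all 6, and of those among the poorest 50 of any library (71), 29 were so in all 6.

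**Figure D3:**
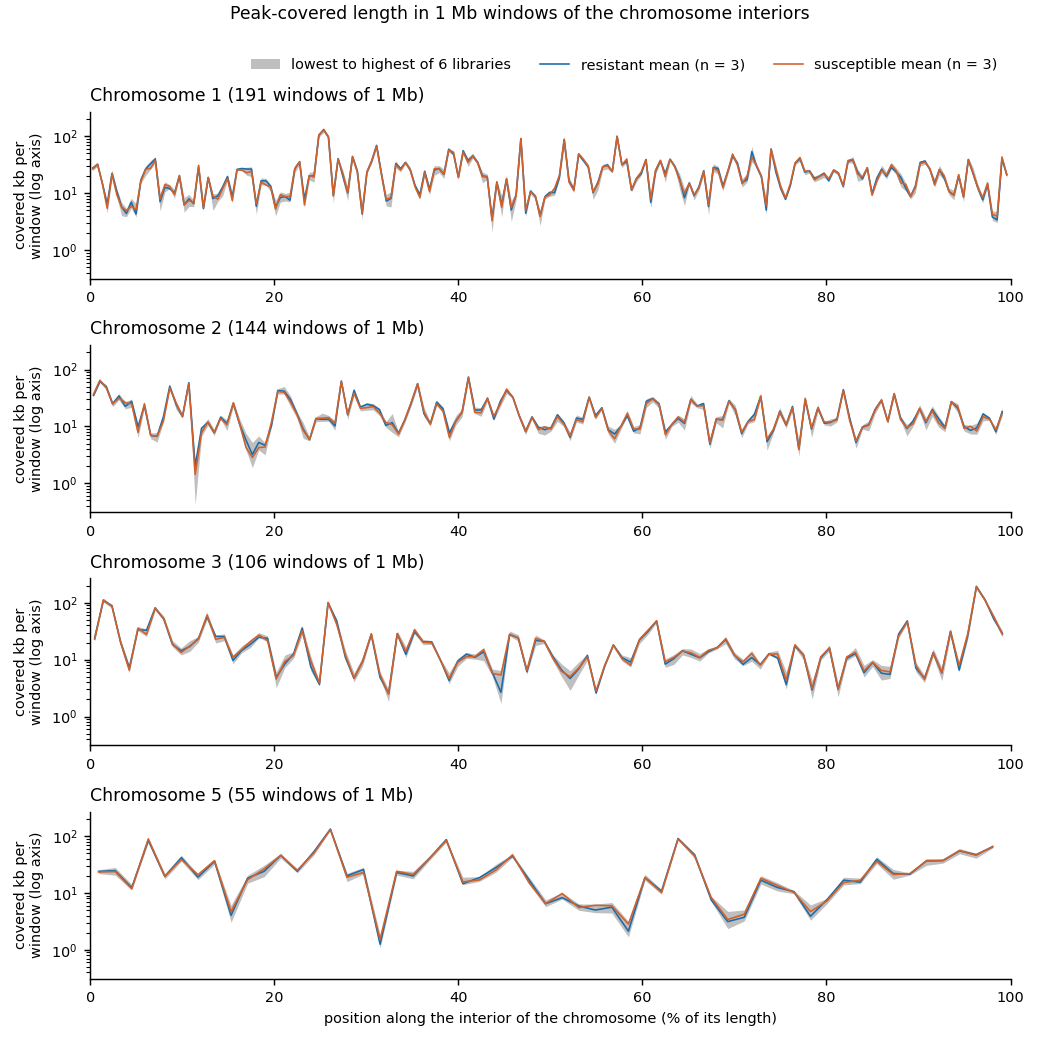
Covered kb per 1 Mb window (log axis) along the interior of each chromosome, with position as a percentage of the interior. The grey band runs from the lowest to the highest of 6 libraries and the lines are the means of the resistant and susceptible libraries (n = 3 each); they lie on each other, while windows range from 1.39 to 193 kb.

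Rich windows often lay beside rich ones, and the likeness of windows faded within a few Mb. Of the richest 50 windows 23 had a neighbour in the same class, and of the poorest 50 windows 18 had one. Spearman's rho between windows 1 Mb apart was 0.319 (n = 492 pairs of windows) and fell to 0.124 at 2 Mb (n = 488), 0.0717 at 5 Mb and 0.00436 at 20 Mb. The longest run of windows among the richest 50 had 3 windows, 1:49000001 to 52000000. The longest run among the poorest 50 had 4 windows, 2:26000001 to 30000000, with means of 4.997, 3.02, 4.73 and 4.49 kb. By chromosome the richest 50 numbered 17, 10, 12 and 11 on chromosomes 1, 2, 3 and 5, and the poorest 50 numbered 15, 10, 16 and 9. Of the 62 windows within 10 Mb of an end, 13 were among the richest 50 and 6 among the poorest 50.

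Windows with more covered length also had wider, stronger and more widely shared peaks. Medians of the richest 50 and the poorest 50 windows were 701 and 456 bp for mean peak width. For the score percentile they were 48.4 and 35.6, and for the share of merged regions found in all 6 libraries 33.2% and 16.7%. Across all 496 windows, rho with the mean covered length was 0.668 for width, 0.284 for score percentile and 0.417 for sharing. Width enters the covered length itself. Sharing does so too, since a region with a peak in more libraries adds more to a mean over 6 libraries. Neighbouring windows are not independent.

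The richest interior window was 3:104000001 to 105000000, inside the far-end stretch of chromosome 3. It held 196.9, 191 and 197.4 kb of peaks in resistant replicates 1 to 3 and 179.1, 193.8 and 198 kb in susceptible replicates 1 to 3, a mean of 193 ± 7.18 kb (SD, n = 6). The groups overlapped, and the lowest value was that of susceptible replicate 1. Of its 252 merged regions, 114 (45.2%) were found in all 6 libraries, and its peaks averaged 998 bp. In bins of 100 kb, a size chosen after the values were seen, 8 of its 10 bins held more than 10 kb, so the window was rich over most of its length. The next window, 3:105000001 to 106000000, held 112 ± 5.48 kb and ranked 4 of 496.

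Second came 5:16000001 to 17000000, at 131 ± 2.47 kb, with the widest peaks of the 5 richest windows (1119 bp). There 3 of the 10 bins held more than 10 kb, and the bin 16200001 to 16300000 alone held 44.2 ± 1.38 kb, 33.6% of the window. The third, 1:50000001 to 51000000, held 130 ± 7.54 kb in many narrower peaks (718 bp on average, 250 merged regions). Its neighbour 1:49000001 to 50000000 held 105 ± 5.04 kb. Rank 5 was 3:3000001 to 4000000, with 111 ± 7.24 kb in 222 regions.

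Each chromosome had its own maxima. On chromosome 1 the window 1:111000001 to 112000000 followed with 99.3 ± 4.79 kb. Chromosome 2 reached lower maxima, 72.6 ± 6.18 kb at 2:61000001 to 62000000, 63.2 ± 2.46 kb at 2:3000001 to 4000000 and 62.2 ± 3.82 kb at 2:41000001 to 42000000. In the second of these, the bin 3800001 to 3900000 held 46.0% of the covered length. On chromosome 5 the windows 5:37000001 to 38000000 and 5:5000001 to 6000000 held 89.6 ± 2.08 and 86.8 ± 5.91 kb. In the latter the bin 5700001 to 5800000 held 55.9% of the window with 48.5 ± 2.66 kb of its 100 kb. Rich windows thus differed in how far their peaks were spread. The richest held more than 10 kb in 8 of its 10 bins, and the others named so far in 2 to 5.

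The poorest window was 5:19000001 to 20000000, 3 Mb beyond the second richest. It held 1.54, 1.16 and 1.08 kb of peaks in resistant and 1.35, 1.36 and 1.86 kb in susceptible replicates 1 to 3, a mean of 1.39 ± 0.282 kb in 4 merged regions. The groups overlapped. Of its 10 bins, 6 had no peak in any library, and the bin 19300001 to 19400000 held 69.5% of what there was, with a peak in each library.

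Next was 2:18000001 to 19000000, with 1.71 ± 0.642 kb in 12 regions, none of them found in all 6 libraries. The low value there was that of susceptible replicate 3, at 0.425 kb, against 1.84 to 2.17 kb in the others. The remaining 3 of the 5 poorest were 5:34000001 to 35000000 (2.48 ± 0.501 kb), 3:36000001 to 37000000 (2.52 ± 0.382 kb) and 3:60000001 to 61000000 (2.71 ± 0.240 kb). On chromosome 1 no window fell so low, and its minimum was 3.42 ± 0.850 kb at 1:85000001 to 86000000. Other minima by chromosome were 3.65 and 3.97 kb at 1:190000001 and 1:95000001, 3.02 and 3.98 kb at 2:27000001 and 2:113000001, 3.00 kb at 3:88000001 and 3.28 kb at 5:40000001. Assembly gaps were not analysed here, and their part in these low values was not tested.

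**Figure D4:**
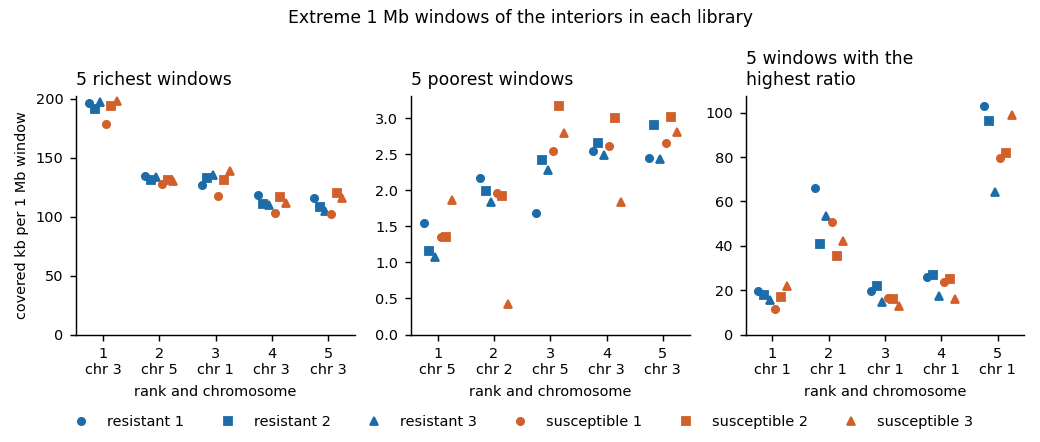
Covered kb per 1 Mb window in each of the 6 libraries for the 5 richest windows, the 5 poorest windows and the 5 windows with the highest ratio between libraries among those at or above the median. Symbols are replicates, colours groups; the richest window lies at 179 to 198 kb and the poorest at 1.08 to 1.86 kb, and the axes differ between panels.

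A few well-covered windows differed strongly between single libraries. Among windows at or above the median mean, the 5 highest ratios of highest to lowest library were all on chromosome 1. In 1:139000001 to 140000000 the libraries held 65.9, 41 and 53.7 kb (resistant replicates 1 to 3) and 50.5, 35.3 and 42.4 kb (susceptible replicates 1 to 3). The bin 139300001 to 139400000 carried 61.1% of this window and most of its spread, from 22.4 kb in susceptible replicate 2 to 40.2 kb in resistant replicate 1. Values of the groups overlapped, and high and low libraries were found in both.

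In 1:161000001 to 162000000 the 2 libraries that stand apart on Z and W were the lowest, at 17.5 and 16.2 kb against 23.5 to 26.7 kb. The bin 161000001 to 161100000 held 8.65, 9.95 and 1.10 kb in resistant and 8.39, 10.1 and 2.52 kb in susceptible replicates 1 to 3. In both groups replicate 3 was far below the other libraries there. The other windows with high ratios were 1:124000001 to 125000000 (11.7 to 21.9 kb) and 1:170000001 to 171000000 (12.9 to 21.9 kb). In 1:170000001 to 171000000 both replicates 3 were again the lowest, at 14.8 kb (resistant) and 12.9 kb (susceptible) against 15.9 to 21.9 kb. In 1:124000001 to 125000000 the highest and the lowest value both came from susceptible libraries.

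The widest peaks of the interiors lay in the remaining one, 1:100000001 to 101000000, which held 64.4 to 103 kb. The 3 widest merged regions formed one block there, 1:100346120 to 100424630, with a length of 78.5 kb and short spaces between them. Peaks covered 75.6, 69.5 and 41.0 kb of it in resistant replicates 1 to 3 and 53.4, 56.0 and 71.6 kb in susceptible replicates 1 to 3. Between 6 and 17 peaks per library had a score of 3100, the value at which scores pile up, or more.

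The libraries differed most in the middle region of this block, 1:100369918 to 100391407, of 21.5 kb. It was covered over 21.3 and 19.6 kb in resistant replicates 1 and 2 and over 19.3 and 21.3 kb in susceptible replicates 2 and 3. Resistant replicate 3 had no peak in it, and susceptible replicate 1 had 2.77 kb. The flanking regions, 1:100346120 to 100365565 and 1:100391438 to 100424630, had peaks in all 6 libraries. The libraries without the middle part came from both groups, and only 1 of them was among those that stand apart on Z and W. The block was singled out as one after its values were seen, and its input signal is not analysed here.

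Spacing of interior peaks was strongly clustered. The median gap was 8045, 9104 and 10453 bp in resistant and 10087, 8771 and 10183 bp in susceptible replicates 1 to 3, while mean gaps were 24378 to 30577 bp. Gaps under 2 kb made up 22.6 to 25.7% of all, and gaps over 100 kb made up 5.23 to 7.44%. The coefficient of variation of the gaps was 170 to 180%. The 3 libraries with the fewest peaks had the longest median gaps. By chromosome the median gap was shortest on chromosome 5 (5939 ± 394 bp) and longest on chromosome 2 (12731 ± 1624 bp), with n = 6.

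Some stretches had no peak in any library. The longest on each chromosome were 1:87036171 to 87472484 (436 kb), 2:25412115 to 25726227 (314 kb), 3:42819966 to 43139527 (320 kb) and 5:41665831 to 42240607 (575 kb). The one on chromosome 5, the shortest of the 4 chromosomes and the one with the highest mean coverage, was thus the longest, and 3 common gaps of chromosome 5 were over 500 kb while none was on the other chromosomes. In bins of 100 kb, 270 of 4979 (5.42%) had no peak in any library and 3470 (69.7%) had one in all 6. Whether sequence in these gaps could be mapped was not tested.

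Most interior peaks were short and of modest score. The median width was 473 to 558 bp, and 7.74 to 11.9% of peaks exceeded 1000 bp. Peaks over 5 kb numbered 25 to 38 per library. The median score was 159.8, 169.4 and 164.6 in resistant and 170.6, 162.3 and 160.3 in susceptible replicates 1 to 3, against a lowest score of 80 in the lists. Within each library wider peaks had higher scores (Spearman's rho across peaks 0.542 to 0.604). At the other end, scores piled up at exactly 3100, with 254 to 414 interior peaks per library, and reached 3233.06 at most, so the strongest peaks could not be ranked against each other. There were 539 interior regions with a score of 3100 or more in any library and 180 with such a score in all 6.

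The 5 top-ranked of the regions common to all 6 libraries had a score of 3100 or more in each library. They were ordered by the lowest score percentile of their libraries and then by summed score. Such a score was reached in all 6 libraries by 180 interior regions. The percentile of a score of 3100 depends on how many peaks of that list share it. The order among these 5 is therefore not one of strength. These regions were 2:81742314 to 81745736 (3423 bp), 2:34035630 to 34038919 (3290 bp), 2:142378636 to 142380561 (1926 bp), 1:100346120 to 100365565 (19446 bp) and 1:128004110 to 128004703 (594 bp). The first was covered over 3281 to 3423 bp in 1 peak of each library. The last was far shorter and was covered over 269 to 527 bp. No gene names are given for these positions, since no annotation of the build galGal4 was used.

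Interior regions fell mainly into those seen once and those seen always. Of 30900 merged regions, 9182 (29.7%) had a peak in 1 library and 8179 (26.5%) in all 6, with 4520, 3242, 2927 and 2850 in 2, 3, 4 and 5 libraries. Regions of all 6 libraries made up 43.2% of the summed region length. At the ends 42.6% of regions, and on chromosomes 6 to 10 33.0%, had a peak in all 6 libraries. From 1 to 6 libraries the median peak width rose from 370 to 613 bp and the median score percentile from 13.7 to 66.2, so single-library peaks were mostly short and near the lower score limit.

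**Figure D5:**
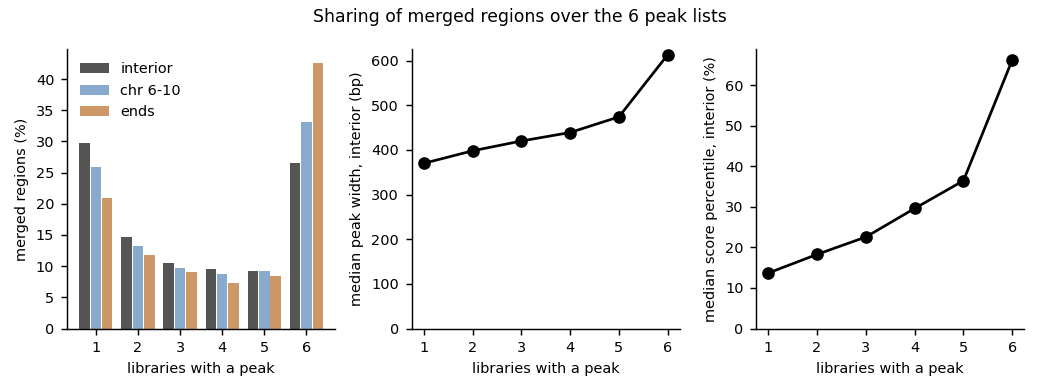
Left, the percentage of merged regions by the number of libraries with a peak in them, for the interiors, chromosomes 6 to 10 and the ends. Middle and right, the median width (bp) and median score percentile (%) of interior peaks by the same number; both climb from 1 library (370 bp, 13.7) to 6 libraries (613 bp, 66.2).

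Peaks found in a single library were most frequent in the 3 longer lists. Regions seen alone numbered 2395, 1814 and 930 in resistant and 921, 2103 and 1019 in susceptible replicates 1 to 3, and among the 3 shorter lists their number did not follow the number of interior peaks. Conversely, regions lacking a peak in 1 library only were most often missing in resistant replicate 3 (623) and susceptible replicate 3 (649), against 344 to 466 in the others. For a pair of libraries, the interior length covered by both divided by the length covered by any of them (Jaccard index) averaged 0.561 ± 0.00932 over the 6 pairs of the same group and 0.565 ± 0.0122 over the 9 mixed pairs. The highest value, 0.583, was between resistant replicate 2 and susceptible replicate 1, and pairs share libraries, so no test was made.

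The resistant and susceptible groups were then compared over the interiors as a whole. Resistant libraries held 18303 ± 2092 interior peaks and susceptible libraries 17420 ± 1689 (mean ± SD, n = 3 each, as below). Coverage was 22.1 ± 1.19 against 22.0 ± 1.42 kb per Mb, mean width 606 ± 40.5 against 630 ± 46.3 bp and median gap 9201 ± 1207 against 9680 ± 789 bp. The share of covered length in each library's own richest 50 windows was 31.7 ± 0.603% against 31.6 ± 0.786%. These differences were smaller than the spread between replicates (exact two-sided permutation tests, p = 0.8 for peaks and for coverage, 0.5 for width, 0.7 for gap and 0.9 for the richest windows). The median of the raw score, which also grows with depth, was 164.6 ± 4.82 against 164.4 ± 5.46 (exact p = 1). In regions of all 6 libraries lay 48.9% against 50.7% of peaks (exact p = 0.9). All adjusted p-values were 1, and 3 libraries against 3 cannot give a p below 0.1. Without both replicates 3 the resistant libraries had 1410 more peaks and 0.876 kb per Mb more coverage (n = 2 each, exact permutation p = 0.667 and 1), where the smallest possible p is larger still. Resistant minus susceptible was then -854.5 bp in median gap and 0.0703 points in the richest windows. In mean width it was -21.5 bp, with 581 and 584 against 607 and 601 bp (exact permutation p = 0.333, the smallest possible here). The groups did not overlap in width there, while with both replicates 3 they did.

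No 1 Mb window passed the test between the groups. In limma on log2(covered kb + 1) over 988 windows of the whole genome, 0 windows (0%) had an adjusted p under 0.05, and 0 of the 496 interior windows did. At an unadjusted p under 0.05 there were 7 of the 496 interior windows, 3 of them higher in resistant libraries. Over all 988 windows, the interior ones included, there were 9. Covered length was not scaled between libraries in this fit. The lowest adjusted p of an interior window was 0.999. The median standard error of an interior window's difference was 0.11 on that log2 scale, and 495 of 496 windows differed by less than 0.5. The exception was 3:49000001 to 50000000, singled out after its value was seen. It held 1.70, 3.88 and 2.42 kb in resistant and 4.80, 4.90 and 6.45 kb in susceptible replicates 1 to 3, a log2 difference of -0.83 with a standard error of 0.22 (limma, adjusted p = 0.999). The susceptible libraries lay above the resistant ones without overlap, in a window of low coverage.

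In few windows did the groups not overlap. Every resistant library lay above every susceptible one in 11 interior windows (2.22%), against 22 (2.23%) of all 988 windows tested, the interior ones included. The reverse held in 12 interior windows (2.42%), against 14 (1.42%) of all windows, so that all but 2 of these lay in the interiors. Whether that share differs from the rest of the genome was not tested. Some differed by little, as 1:32000001 to 33000000, where resistant libraries held 25.9 to 26.5 kb and susceptible libraries 25.3 to 25.8 kb. The highest mean among them, at 2:3000001 to 4000000, was 59.3 to 63.1 kb in resistant and 63.2 to 66.3 kb in susceptible libraries.

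At the level of single regions, 196 interior regions had a peak in all 3 resistant and in 0 susceptible libraries, 0.634% of interior regions against 0.577% of all regions of the genome. The reverse was true of 101 regions, 0.327% against 0.32% of all regions. Exactly 3 libraries had a peak in 3242 interior regions, and in 9.16% of these the 3 were those of 1 group (exact Clopper-Pearson interval at 95%, 8.19 to 10.2%). Over the genome this share was 9.46%, so the interiors lay near the background in each count. It was 10.9% on chromosome 2 and 8.23% on chromosome 1, with overlapping intervals (8.88 to 13.2% and 6.78 to 9.89%). Such an interval covers counting error only. Cutting each list to its 55599 strongest peaks left 126 resistant-only and 143 susceptible-only interior regions, so that the larger count changed sides. The share over the genome was not computed for the cut lists.

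These group-only regions were mostly weak. Taking for each region the weakest of its 3 peaks, the median percentile was 8.24 for resistant-only and 9.27 for susceptible-only interior regions. The weakest of 3 is low by construction, and it was not computed for other regions of exactly 3 libraries. Over all peaks of interior regions of exactly 3 libraries the median percentile was 22.6. In 1 region, resistant-only, the weakest peak stood above percentile 50. That one was 2:8755757 to 8756367 (611 bp), whose scores were 191.1, 246.3 and 199.6 over resistant replicates 1 to 3. No susceptible peak lay nearer than 6176 bp. Ranked by that lowest percentile, 2:58398030 to 58398691 and 1:45299170 to 45299791 came next. They were followed by 2:16787128 to 16788106 (979 bp, scores 152.4, 213.1 and 155.9) and 1:34738955 to 34739300 (346 bp, scores 144.7, 211.2 and 354.6). The nearest susceptible peaks of these last regions lay 10316 and 30191 bp away.

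Among susceptible-only regions the first were 3:39165128 to 39165670, 3:20831487 to 20832166 and 1:68433208 to 68433547. The nearest resistant peaks lay 2478, 302 and 5094 bp from them, in this order. Rank 4 was 1:106685437 to 106686222 (786 bp), scored 139.8, 130.4 and 176.2 over susceptible replicates 1 to 3, and a resistant peak lay only 74 bp from it. Rank 5 was 5:51519597 to 51520114 (518 bp), with scores of 133.1, 198.5 and 176.1 and a resistant peak 2050 bp away. Each of the 10 named group-only regions had at least 1 peak scored below the pooled median of 193.59, so a minimum at that score removes them by construction. All 10 were found again with lists of equal length and with a margin of 5 Mb, but both outcomes were fixed by construction. The cut to equal length removes only the weakest peaks of a list, and these regions were picked for a high lowest percentile. The margin does not enter the search for them. With peaks up to 500 bp apart joined, 3 of the 5 susceptible-only and all 5 resistant-only regions were found again. Those lost had a resistant peak 302 and 74 bp away, so their loss followed from these distances. Where peaks had to cover at least 50% of a region, it was 3 of the 5 resistant-only and all 5 susceptible-only regions. In 1:45299170 to 45299791 resistant replicate 2 covered 298 of 622 bp. In 2:16787128 to 16788106 resistant replicate 3 covered 410 of 979 bp. This outcome too was thus fixed by the peaks of the named regions.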

How the data were processed

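Per the labels' protocols, liver DNA was sequenced as read pairs on an Illumina instrument. Trimming and alignment tools named in the submitters' processing notes are cutadapt and Bowtie2, and the build is galGal4. Versions and settings: not given in the sources used here. For each of the 6 MeDIP libraries the authors deposited 1 peak list. Per the file and peak names, each was called by MACS against its own input at a p-value of 1e-08. The 6 input libraries were not analysed here. The deposited score of each peak, lowest at 80, was read as -10 times the log10 p-value from its range. For peak strength it was ranked within a list. Raw scores were also used across lists, at the pooled median and in the group comparison of median scores. They were so used too in counts at the value where scores pile up, and in the summed score that ordered regions. Depth per library is unknown, and intervals cover counting error only.

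Coordinates are counted from 1. Merging, windows and exact tests used Python 3.11.15, numpy 2.4.6, pandas 2.3.3 and scipy 1.17.1. Windows with a mean of at least 1 kb, over all chromosomes, were tested with limma 3.58.1 in R 4.3.3 on log2(covered kb + 1), with Benjamini-Hochberg adjustment. The steps were tested on simulated data. Groups came from the source labels, and replicate numbers from accession order. Named windows were the 5 richest and 5 poorest, the 3 richest and 3 poorest of each chromosome and the 5 of highest ratio between libraries. Named regions were the 5 top-ranked of each kind, the 3 widest and the longest common gap of each chromosome. Members, lists and tests were chosen with earlier results of these data known.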

Additional observations from a re-analysis of the deposited data

How the results depend on the processing

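The alternatives were leaving out each library in turn, the 4 libraries with low Z coverage, lists of equal length, a score of at least the pooled median, a margin of 5 Mb, and other settings for windows and regions. No replicate block was fitted: No paired analysis was possible because the replicate numbers are only an order of accession and pair no samples. Counted over the main comparisons and their alternatives, 117 values kept their direction and side of the threshold or, for counts, their size. Another 98 kept only the direction, 13 changed direction and 18 counts moved by over 1.5 times. For the group differences over the interiors as a whole, the side of the threshold was fixed by construction. Their exact p cannot fall below 0.1, so among the 117 they show a kept direction only.

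All comparisons of the interiors with other parts, and of the interiors of single chromosomes with each other, kept their direction. The 98 values are theirs, since with 5 or 4 libraries the sign-flip test cannot pass 0.05 by construction (smallest exact p 0.0625 and 0.125). In the 4 libraries with low Z coverage, interior minus ends was -89.7 kb per Mb, -290 bp in width, -15.5 in score percentile, 7199 bp in median gap and -13.8 percentage points in sharing. With libraries left out, sharing means a peak in every library kept. Its values in this paragraph are therefore a different measure from sharing over all 6. Leaving out 1 library gave -92.2 to -90.3 kb per Mb, -311 to -299 bp, -16.1 to -15.6, 7421 to 7869 bp and -17.7 to -16.7 points. Against chromosomes 6 to 10 the 4 libraries gave -27.3 kb per Mb, -101 bp and -6.91 points, and leaving out 1 gave -27.9 to -27.3 kb per Mb, -109 to -104 bp and -8.31 to -7.68 points. Between interiors the 4 libraries gave, in kb per Mb, 4.73 (1 minus 2), 1.38 (1 minus 3), -4.35 (1 minus 5), -3.36 (2 minus 3), -9.09 (2 minus 5) and -5.73 (3 minus 5). In the same order leaving out 1 library gave 4.68 to 4.82, 1.23 to 1.35, -4.37 to -4.22, -3.55 to -3.33, -9.19 to -8.97 and -5.66 to -5.47. With the margin at 5 Mb the difference from the ends was -46.2 kb per Mb, at p = 0.03125 in the exact permutation test.

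None of the group differences, resistant minus susceptible, kept its sign under every alternative. With equal list lengths, which by construction removes more resistant peaks, they turned to -184 peaks and -0.643 kb per Mb. The median score turned to -1.84 in the 4 libraries, and the share in the richest windows to -0.190 points at the pooled median score. Leaving out 1 library gave -0.577 to 0.836 kb per Mb, -48.2 to 1.89 bp in width, -2.19 to 3.31 in median score, -1106 to 98.2 bp in median gap and -0.368 to 0.407 points in the richest windows, while the difference in peaks stayed between 56 and 2059. The width turned only without susceptible replicate 3, the gap only without resistant replicate 1 and the number of peaks only with equal list lengths. Called windows numbered 0 under every alternative run in limma. At an unadjusted p under 0.05 there were 32 of 979 interior windows of 500 kb, against 45 of 1955 in the genome. For windows of 2 Mb these were 2 of 247 and 3 of 487. The other alternatives gave 6 to 24 interior windows and 8 to 32 over the genome. Among them, scaling covered length to each library's total outside Z and W gave 19 and 28, against 7 and 9 unscaled.

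Resistant-only regions numbered 1053 in the 4 libraries, 126 with equal list lengths, 66 at the pooled median score and 372 to 671 without 1 library. Susceptible-only regions numbered 620, 143, 45 and 208 to 396 in the same order, and 177 in fixed windows of 1000 bp. Fewer libraries loosen this definition by construction, and for the other counts the cause was not tested. The share over the whole genome was not computed under these alternatives, so the counts are not set against a background. Depth is unknown, which limits what an absent peak shows, and scores at 3100 limit ranking of the strongest.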
